A study of Drosophila melanogaster with 2 samples.

Results

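The dpr, DIP, beat and side genes encode cell-surface and secreted proteins of the immunoglobulin superfamily through which neurons recognise each other and their targets. The members were the genes in the deposited count table whose symbols are dpr plus a number or start with DIP-, beat- or side. The table listed 54 such genes, 21 dpr, 11 DIP, 14 beat and 8 side. At least 1 UMI (a unique molecular identifier, the tag that marks 1 captured RNA molecule) was counted for 53 of them, of 11735 genes with UMIs in all, and beat-IIIa had 0 UMIs. The 53 members had 2821 UMIs together, 0.126% of the library, so that 37 members with at least 20 UMIs carry the comparisons, while 13 members had 10 to 19 UMIs and dpr5, dpr16 and DIP-iota had 9, 7 and 2.

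The study measured nuclei of Drosophila melanogaster embryos, 0 to 24 h old, in an assay named scAIR, which reads RNA, accessible chromatin and chromatin contacts on the 10x Genomics platform. All nuclei were crosslinked, digested and ligated before barcoding, no genotype or treatment other than that is named, and embryos of all stages were in the same collection. There was 1 RNA library, of 318 nuclei and 2233526 UMIs (279 to 123309 UMIs per nucleus, median 2969). The library of accessibility and contacts was not analysed here. With 1 library there is no replicate and no test between conditions: values are the summed UMIs of a group of nuclei in 1000000 of its UMIs (CPM), and every interval is an exact 95% interval that covers counting error only. UMIs were not divided by transcript length, so levels are set side by side for 1 gene across groups and not between genes.

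Dpr proteins bind DIPs, the Dpr-interacting proteins, in preferred pairs. Different neurons express different combinations of them, and the pairs are known to act in synaptic partner choice, in the survival of neurons and in the innervation of muscles. Beat proteins, named after beaten path, bind Side proteins, named after sidestep: Side on the surface of muscles and other targets attracts motor axons that carry Beat-Ia, and Beat-Ia lets those axons leave their bundle. Most other Beat and Side proteins have been paired by binding assays, and fewer of them have a known role in the animal.

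Nuclei were grouped by clustering in which no member was used, and 73 nuclei (23.0%, 232340 UMIs) were named neuron-like from neuron markers. They came from a pair of clusters. A cluster of 44 nuclei (median 1185 UMIs) was higher in 15 neuron markers, with the synaptic vesicle protein nSyb at 620 CPM and the sodium channel para at 3385 CPM, against 61.0 and 193 CPM in all nuclei that were not neuron-like. It was also higher in 6 markers of sensory organs. A cluster of 29 nuclei (median 2658 UMIs) was higher in 5 neuron markers, elav, cpx, onecut, fne and CadN, and in 2 markers of the amnioserosa. The RNA-binding proteins elav and fne were at 1764 and 2984 CPM, against 652 and 677 CPM outside the neuron-like nuclei. The other listed neuron markers, nSyb, Syt1 and brp among them, were not called higher in this cluster, and para was at 185 CPM. Of its 10 leading genes 0 were listed neuron markers. The muscle-like group held 31 nuclei (median 4596 UMIs) with 18 muscle markers, and 1 nucleus of 123309 UMIs held 30.6% of its UMIs. Epidermis-like nuclei numbered 54, salivary gland-like nuclei 7, and 34 nuclei rich in the fat-body lipoprotein apolpp stayed unnamed because they also had fkh. Clusters 0, 1 and 2 (65, 48 and 6 nuclei) stayed unnamed, and cluster 1 had the deepest nuclei (median 10175 UMIs) and 31.9% of all UMIs. Markers of other cells were also counted in the neuron-like and muscle-like nuclei. The muscle myosin Mhc was at 6948 CPM in muscle-like nuclei and at 383 CPM in neuron-like nuclei, where 30 of 73 had a UMI of it. For nSyb the level was 44.6 CPM in muscle-like nuclei, where 7 of 31 had a UMI of it. Whether these UMIs came from other cells was not tested, nor was the part of such RNA in the low levels given below.

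All 4 families were higher in neuron-like nuclei than in the other 245 nuclei. The dpr genes had 330 UMIs there and 653 elsewhere, or 1420 against 326 CPM, a ratio of 4.35 (3.80 to 4.98). For the DIP genes 448 against 94.9 CPM gave a ratio of 4.71 (3.68 to 6.02). The intervals of these families overlapped. The beat genes were 3.33-fold higher (2.86 to 3.88, 1016 against 305 CPM) and the side genes 2.75-fold (2.30 to 3.28, 727 against 264 CPM), and the interval of the side genes lay below those of the dpr and DIP genes. Without beat-IIIc, which had 363 of the 846 beat UMIs and is described with the muscle-like nuclei, the beat ratio was 5.68 (4.71 to 6.84). With each nucleus weighed the same, the DIP ratio was 8.32 and the beat ratio 5.08, and with all nuclei thinned to 1000 UMIs the DIP ratio was 9.77.

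Of the 37 members with at least 20 UMIs, 30 were at least 2-fold higher in neuron-like nuclei on the scale of CPM + 10, and 0 were at least 2-fold lower. Over all 7983 genes with at least 20 UMIs the shares were 7.94% higher and 8.63% lower. The median log2 ratio was 1.66 over these members and -0.07 over all genes. By family, 11 of 13 dpr, 5 of 6 DIP, 8 of 10 beat and 6 of 8 side genes were at least 2-fold higher. The 7 others were dpr10, dpr17, DIP-alpha, beat-IIIc, beat-IIb, side-V and side-IV. The count was 14 of 37 on the scale of CPM + 50, where 4.18% of all genes were higher.

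**Figure D1:**
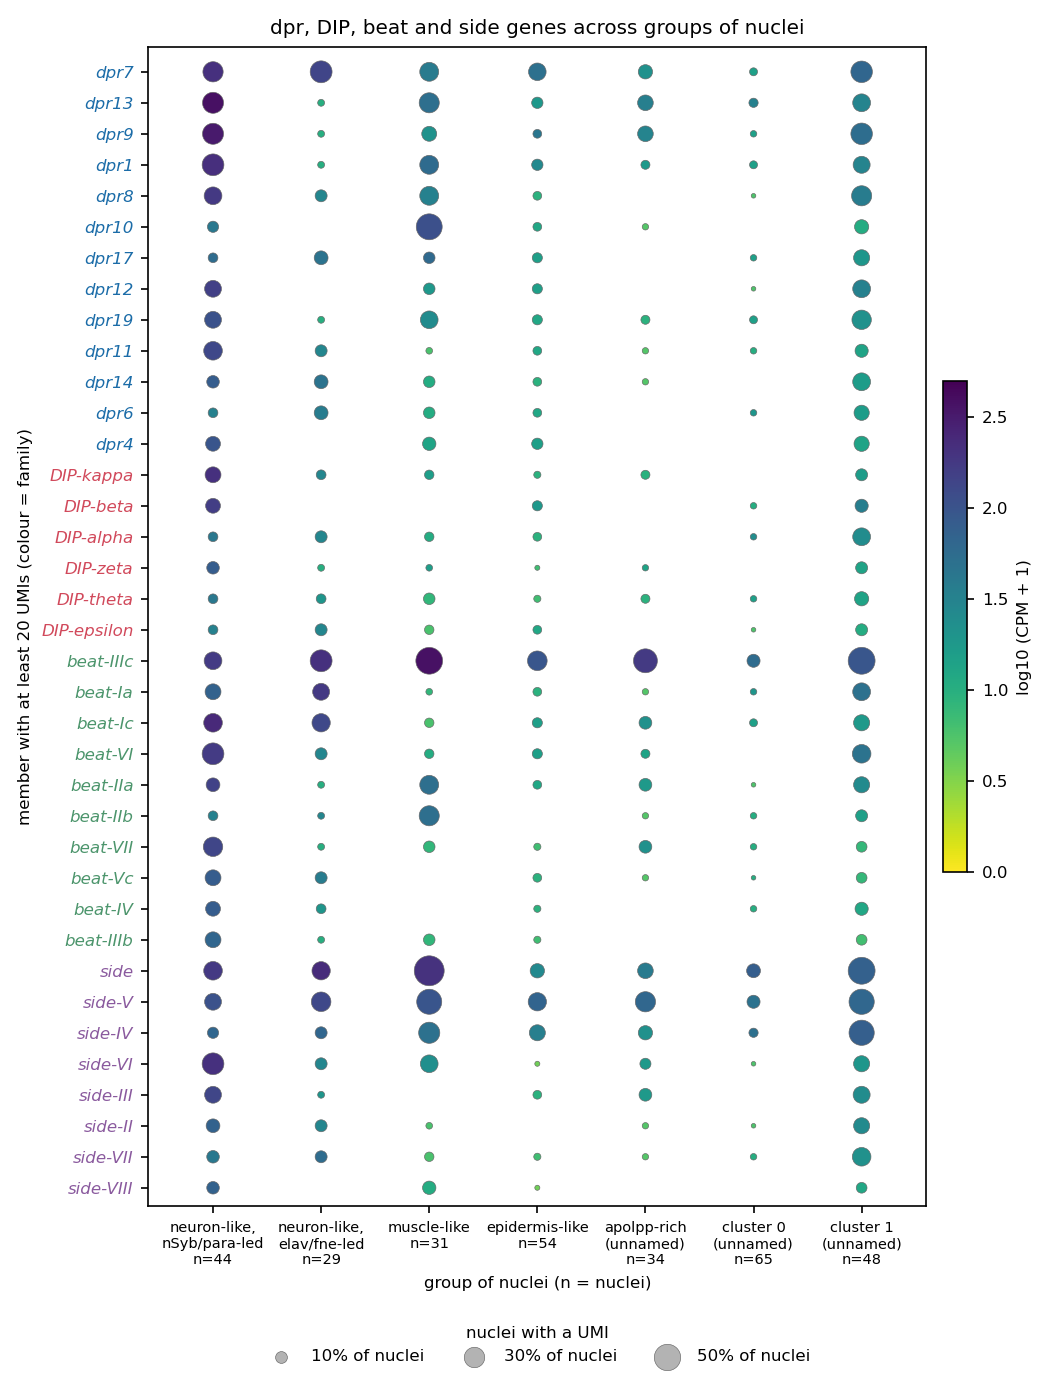
The 37 members with at least 20 UMIs (rows, coloured by family) in 7 groups of nuclei (columns, n is the number of nuclei): colour gives log10 of CPM + 1, dot area the percentage of nuclei with a UMI of the gene, and an empty place means 0 UMIs. Most rows are darkest in the nSyb- and para-led neuron-like nuclei, dpr10, beat-IIIc and beat-IIb are darkest in muscle-like nuclei, and the large dots of cluster 1 belong to its deep nuclei (median 10175 UMIs).

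Among the dpr genes with at least 20 UMIs the ratio of neuron-like to other nuclei went from 0.756 (0.236 to 1.87) for dpr10, which was at 2.61 when thinned to 1000 UMIs, to 8.61 (4.32 to 17.2) for dpr11, whose product binds DIP-gamma. For dpr13 there were 49 UMIs in neuron-like nuclei and 68 elsewhere (6.21-fold, 4.21 to 9.09), and for dpr9, a partner of DIP-beta, 42 and 73 (4.96-fold, 3.31 to 7.34). The founding member dpr1, named for its part in the taste response to salt, was 3.89-fold higher (2.40 to 6.17). These genes were found well beyond the neuron-like nuclei too: dpr13 had 21 UMIs in 9 of 31 muscle-like nuclei, and dpr1 had 23 UMIs in 8 of them. The member with the most UMIs of the family, dpr7, had 133 UMIs, with 41 in neuron-like nuclei (3.84-fold, 2.59 to 5.60) and 46 in cluster 1. Ratios of dpr8, dpr12, dpr14, dpr19 and dpr4 lay between 3.55 and 6.80, and that of dpr6, a partner of DIP-alpha, was 2.87 (1.12 to 6.61) on 8 UMIs in neuron-like nuclei. For dpr17 it was 2.30 (1.11 to 4.41), on 12 UMIs there and 45 elsewhere. The 8 dpr genes under 20 UMIs had 41 of their 98 UMIs in neuron-like nuclei. Among them dpr20 had 10 of its 14 UMIs there (21.5-fold, 6.21 to 94.1), 6 of them in 1 nucleus, and dpr5 had 6 of 9 (17.2-fold, 3.68 to 106).

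Among DIP genes with at least 20 UMIs, DIP-kappa had the highest ratio, with 29 UMIs in neuron-like nuclei and 30 elsewhere (8.33-fold, 4.82 to 14.4). DIP-beta, known from neurons of the fly visual system, had 20 and 33 UMIs (5.22-fold, 2.84 to 9.37). Without cluster 1, where 25 of its UMIs were counted in 6 nuclei, the DIP-beta ratio was 13.9. DIP-zeta and DIP-epsilon, which share their Dpr partners, were 4.51-fold (1.96 to 9.79) and 4.31-fold (1.47 to 11.4) higher. DIP-theta was 3.01-fold higher on 7 UMIs. The lowest ratio among DIP genes with at least 20 UMIs was that of DIP-alpha, 2.38, with an interval (0.939 to 5.33) that includes 1. DIP-alpha had 8 UMIs in neuron-like nuclei, 4 in muscle-like nuclei and 17 in cluster 1. Among the rarer DIP genes, DIP-gamma had 11 of 19 UMIs in neuron-like nuclei (11.8-fold, 4.34 to 33.9), DIP-delta 7 of 16 and DIP-eta 4 of 15, whereas DIP-lambda had 0 of 13, with 8 in apolpp-rich nuclei and 5 in cluster 1. In the apolpp-rich nuclei DIP-lambda was at 33.8 CPM (14.6 to 66.7), and 5 of 34 had a UMI of it. For the count of 0 in neuron-like nuclei, a floor of 3 counts is 12.9 CPM, which is not an exact bound. The ratio of neuron-like to other nuclei had an exact interval of 0 to 2.83, which includes 1.

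In the beat family the highest ratio belonged to beat-Ic, with 44 UMIs in neuron-like nuclei and 27 elsewhere, 14.0-fold (8.50 to 23.6). This was the highest ratio among all 37 members. Its paralog beat-Ia, whose product receives Side on motor axons and after which the family is named, had 28 and 48 UMIs (5.02-fold, 3.04 to 8.17), and beat-Ib had 6 and 6. The 35 UMIs of beat-Ia in cluster 1 made up most of those outside the neuron-like nuclei, and without that cluster the ratio was 11.9. For beat-VII the ratio was 7.38 (3.71 to 14.6), for beat-Vc 8.61 (3.81 to 19.5), for beat-IV 6.89 (2.95 to 15.8) and for beat-IIIb 6.46 (2.40 to 16.7), all on 9 to 18 UMIs in neuron-like nuclei. The Side-II partner beat-VI was 4.40-fold higher (2.57 to 7.34), and beat-IIa, a Side-IV partner, 3.41-fold (1.89 to 5.91). The rarer beat-Va and beat-Vb had 6 of 19 and 5 of 11 UMIs in neuron-like nuclei. By contrast beat-IIIc was close to even, at 189 against 159 CPM (1.19-fold, 0.846 to 1.63), and beat-IIb was 1.77-fold higher with an interval that includes 1 (0.663 to 4.06). With the muscle-like nuclei left out of the reference, the ratios were 1.81 (1.27 to 2.54) for beat-IIIc and 3.70 (1.25 to 9.99) for beat-IIb.

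The side family held members with low and with high ratios. The sidestep gene itself, side-IV and side-V had 89 UMIs in neuron-like nuclei and 418 elsewhere, a ratio of 1.83 (1.44 to 2.31). Singly, side was 2.30-fold higher (1.63 to 3.19), side-V 1.70-fold (1.08 to 2.58) and side-IV 1.23-fold (0.665 to 2.12). Thinned to 1000 UMIs the ratio of side-V was 0.977. The 5 other side genes had 80 and 111 UMIs, a ratio of 6.21 (4.60 to 8.35) whose interval lies above that of the first set. They ranged from side-VII at 4.31 (1.89 to 9.27) to side-VI, a partner of the Beat-V proteins, at 8.33 (4.82 to 14.4). side-III was at 6.82, side-VIII at 5.96 (2.25 to 15.1) and side-II at 4.70 (2.12 to 9.91). This division was made after the values were seen.

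**Figure D2:**
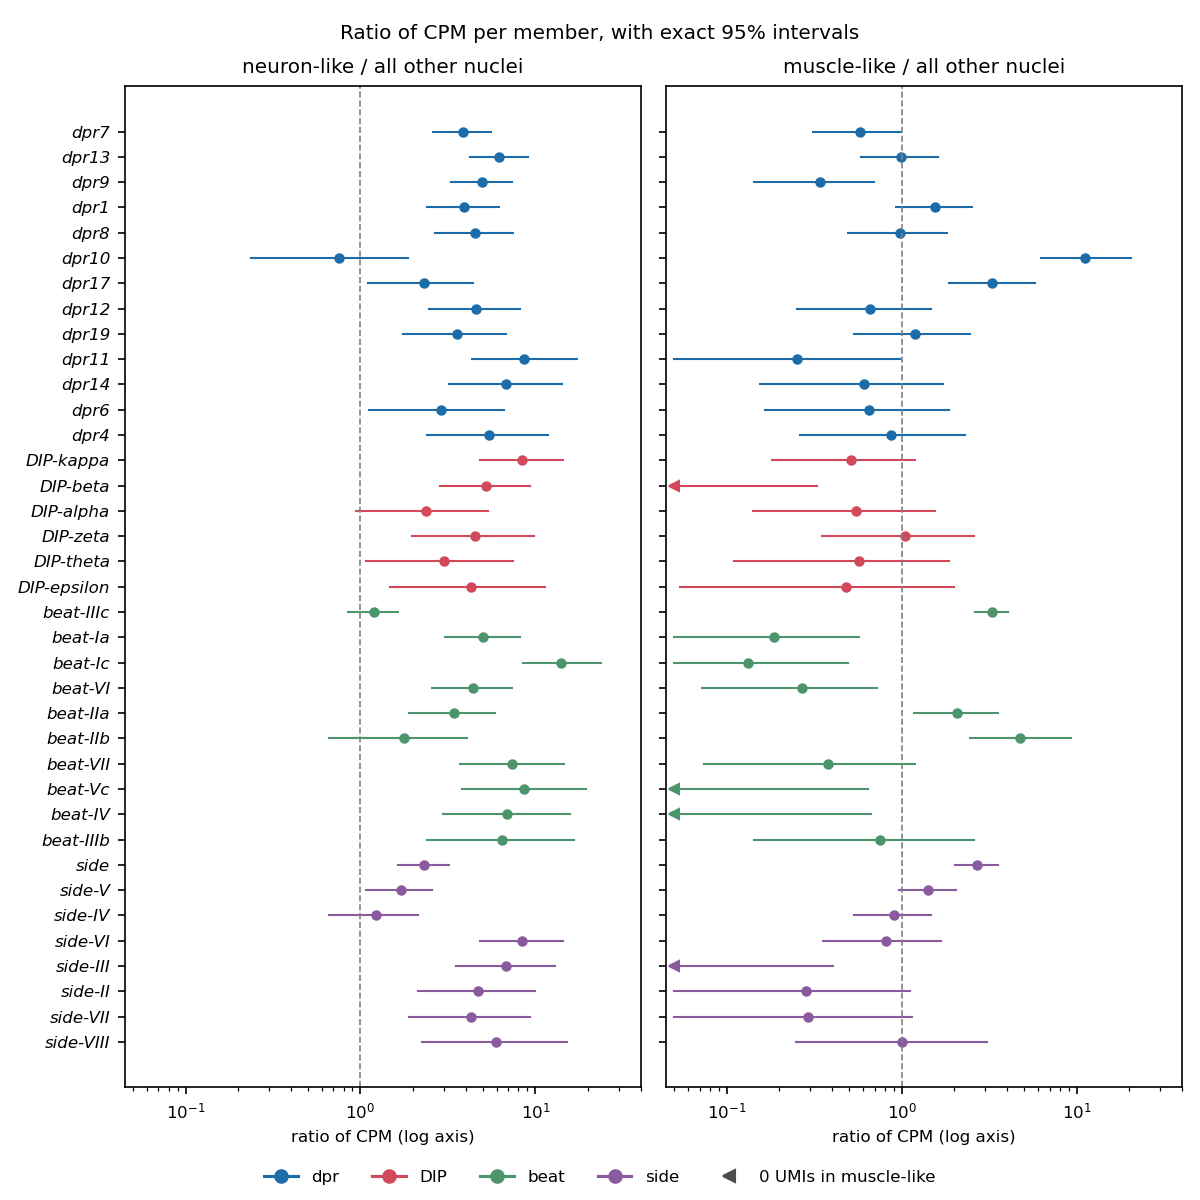
Ratio of CPM in neuron-like nuclei (left) and in muscle-like nuclei (right) to all other nuclei, on a log axis, for the 37 members with at least 20 UMIs. Points are ratios and lines their exact 95% intervals for counting error, lines that run past the left edge end there, and triangles stand for 0 UMIs in muscle-like nuclei. On the left dpr10 alone lies below 1, and on the right dpr10 lies highest at 11.1.

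The neuron-like clusters differed in the dpr and DIP genes more than in the beat and side genes. In the nSyb- and para-led nuclei the dpr genes were at 2305 CPM (2045 to 2588) and in the elav- and fne-led nuclei at 406 CPM (295 to 546). The DIP genes were at 725 and 129 CPM. Together the dpr and DIP genes were 5.66-fold higher (4.28 to 7.59) in the nSyb- and para-led nuclei, whereas the beat and side genes were 1.69-fold higher (1.37 to 2.09), and these intervals do not overlap. Against the 214 nuclei outside the neuron-like and muscle-like groups, the elav- and fne-led nuclei were 1.37-fold higher in dpr and DIP genes (1.03 to 1.79) and 2.65-fold higher in beat and side genes (2.19 to 3.18). With nuclei of both clusters thinned to 1000 UMIs, the ratio of dpr and DIP genes between them was 6.45. Set against the same 214 nuclei, 32 of 37 members were at least 2-fold higher in the nSyb- and para-led nuclei (10.3% of all genes) and 0 were at least 2-fold lower (18.4% of all genes). The 5 others were dpr6, DIP-alpha, beat-IIIc, side-IV and side-V. The highest ratios among the 37 were those of side-VI (15.9, 8.63 to 29.8) and beat-Ic (15.5, 8.79 to 27.4).

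**Figure D3:**
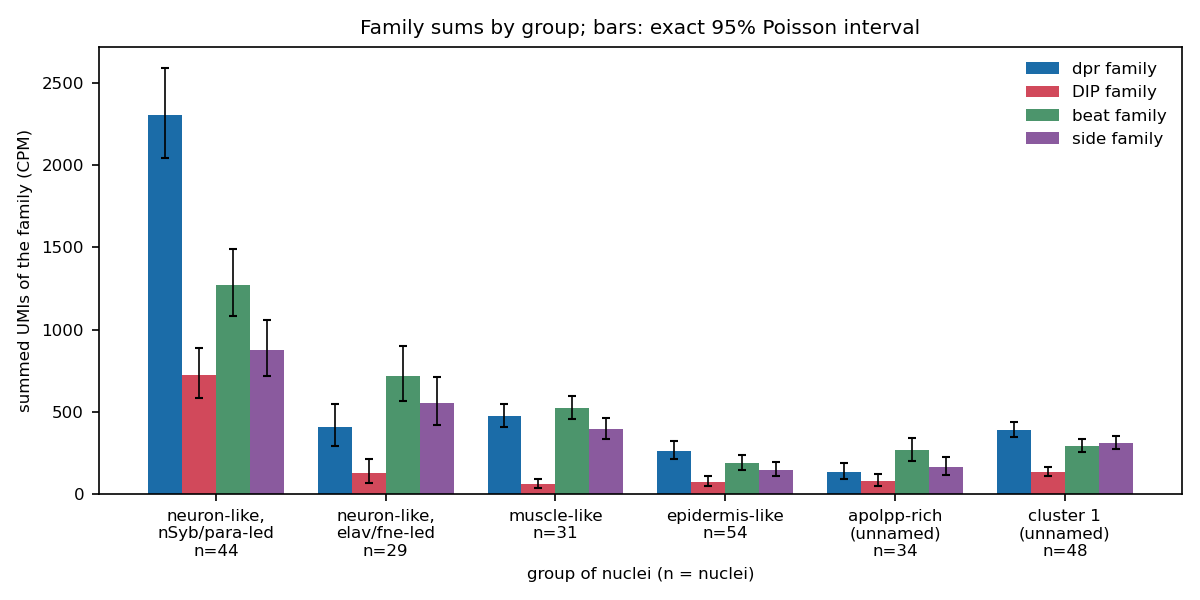
Summed UMIs of each family as CPM (vertical axis, from 0) in 6 groups of nuclei, with bars of 1 family per colour and lines for the exact 95% Poisson interval. The dpr bar of the nSyb- and para-led nuclei stands at 2305 CPM and is 406 CPM in the elav- and fne-led nuclei, whereas the beat bars of the same groups are 1273 and 721 CPM. Cluster 0, cluster 2 and the salivary gland-like nuclei are not drawn.

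Between these clusters 21 of the 37 members were at least 2-fold higher in the nSyb- and para-led nuclei (13.2% of all genes) and 1 was at least 2-fold lower (15.5% of all genes). By family, these were 9 of 13 dpr, 3 of 6 DIP, 5 of 10 beat and 4 of 8 side genes. dpr13 had 48 UMIs in 14 of 44 nSyb- and para-led nuclei and 1 UMI in 29 elav- and fne-led nuclei, dpr9 had 41 and 1, and dpr1 had 27 and 1. The ratios were 41.9, 35.8 and 23.6, with lower bounds of 7.17, 6.07 and 3.88 and no useful upper bound on a single UMI. dpr12, the partner of DIP-delta, had 19 UMIs against 0 (exact lower bound of the ratio 4.07), and DIP-beta had 20 against 0 (4.31). With a floor of 3 counts over the group, which is not an exact bound, their ratios were 5.53 and 5.82. dpr7 was an exception among the dpr genes with many UMIs: 26 UMIs in 13 of 44 nuclei and 15 in 10 of 29 gave a ratio of 1.51 (0.772 to 3.07). dpr6 had 4 UMIs in each cluster, and dpr17 had 7 and 5.

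Beat and side genes divided within their families. beat-IIa (18 against 1 UMIs), beat-VII (17 against 1), beat-VI (21 against 3), side-VI (26 against 3) and side-III (17 against 2) followed the pattern of most dpr genes. beat-Ia, beat-Ib and beat-Ic together did not: they were at 347 CPM in the nSyb- and para-led nuclei and 323 CPM in the elav- and fne-led nuclei (1.07-fold, 0.670 to 1.73). beat-Ia was the 1 member at least 2-fold lower, with 9 UMIs in 8 of 44 nuclei against 19 in 6 of 29 (0.413, 0.165 to 0.959), and it was among the 10 leading genes of the elav- and fne-led cluster. One nucleus held 10 of those 19 UMIs, and leaving out the deepest nucleus of every class the ratio was 0.910. With every nucleus thinned to 1000 UMIs it was 1.45. The side gene had 22 UMIs in 11 of 44 nuclei and 25 in 7 of 29, a ratio of 0.768 (0.413 to 1.42). side-V, side-IV, side-VII and beat-IIIc were between 0.727 and 0.997, each with an interval that includes 1.

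Fewer members were higher in muscle-like nuclei. Compared with the other 287 nuclei, 5 of 37 members were at least 2-fold higher (4.28% of all genes), dpr10, dpr17, beat-IIIc, beat-IIb and side, and 8 were at least 2-fold lower (7.97% of all genes). Set against neuron-like nuclei alone, dpr10 and beat-IIIc were lower in the neuron-like nuclei (0.197, 0.0610 to 0.496, and 0.502, 0.351 to 0.707). For beat-IIIc, 85 of the 152 UMIs in muscle-like nuclei were in 1 nucleus, so that its ratio rests largely on that nucleus. The intervals of beat-IIb (0.579, 0.208 to 1.41), dpr17 (0.868, 0.395 to 1.80) and side included 1. As families, against the other 287 nuclei, the DIP genes were lower in muscle-like nuclei (62.0 against 147 CPM, 0.422, 0.268 to 0.636). The dpr genes were about even (476 against 432 CPM, 1.10, 0.936 to 1.29). The beat and side genes were 1.51-fold (1.28 to 1.77) and 1.34-fold (1.11 to 1.60) higher. Without beat-IIIc the beat ratio was 0.632 (0.473 to 0.831), and the nucleus of 123309 UMIs held 107 of the 211 beat UMIs. With the neuron-like nuclei also left out of the reference, the dpr ratio was 1.65 (1.39 to 1.96) and the DIP ratio 0.600 (0.378 to 0.918). There the side ratio was 1.70 (1.41 to 2.06), and the beat ratio 2.10 (1.77 to 2.48), or 1.01 (0.744 to 1.35) without beat-IIIc.

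The member with the highest muscle ratio was dpr10, whose product on muscles is recognised by DIP-alpha on motor axons in the larva. Of its 62 UMIs, 44 were in 15 of 31 muscle-like nuclei (48.4%, 30.2 to 66.9) and 5 in 4 of 73 neuron-like nuclei, all of them nSyb- and para-led. Epidermis-like nuclei, a non-neural comparison with a median of 3061 UMIs, had dpr10 in 3 of 54 (5.56%), and the muscle-like median was 4596 UMIs. At 109 CPM (79.3 to 147) against 9.83 CPM the ratio was 11.1 (6.28 to 20.4). It was 13.1 when the deepest nucleus of every class was dropped and 15.1 with each nucleus weighed the same. Thinned to 1000 UMIs the ratio was 5.54, with dpr10 found in 2 of 29 muscle-like nuclei. The RNA of Mhc, for comparison, was at 6948 CPM in these nuclei and at 466 CPM outside them. The other Dpr partner of DIP-alpha, dpr6, had 4 UMIs in muscle-like nuclei (9.92 against 15.3 CPM).

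side, which on muscles draws motor axons to their targets, had 83 UMIs in 20 of 31 muscle-like nuclei and was at 206 CPM (164 to 255) there against 76.5 CPM elsewhere, 2.69-fold higher (2.03 to 3.56). Its level in neuron-like nuclei was 202 CPM, a ratio to muscle-like nuclei of 0.983 (0.672 to 1.42). Against the remaining 214 nuclei, at 58.2 CPM, the ratio was 3.48 (2.39 to 4.99) for neuron-like and 3.54 (2.60 to 4.81) for muscle-like nuclei. beat-IIb, which binds Side-IV, had 21 UMIs in 9 muscle-like nuclei and 20 UMIs in all other nuclei (4.77-fold, 2.46 to 9.27). beat-IIIc, for which no partner was listed, had 152 UMIs in 16 of 31 muscle-like nuclei, 377 against 115 CPM (3.27-fold, 2.64 to 4.05). The deepest nucleus held 85 of these UMIs, and the ratio was 1.98 without the deepest nucleus of every class. beat-IIa was 2.07-fold higher (1.17 to 3.54), but 0.983 with each nucleus weighed the same. dpr17 (3.30-fold, 1.87 to 5.76) rested on 24 UMIs in 3 nuclei, 14 of them in the deepest, and was 0.789 with each nucleus weighed the same.

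The 8 members at least 2-fold lower in muscle-like nuclei were dpr9, DIP-beta, beat-Ia, beat-Ic, beat-VI, beat-Vc, beat-IV and side-III. DIP-beta, beat-Vc, beat-IV and side-III had 0 UMIs there, against 14.8 to 29.0 CPM in the other nuclei. A floor of 3 counts in muscle-like nuclei is 7.44 CPM, which is not an exact bound. beat-Ia, beat-Ib and beat-Ic together were at 14.9 against 83.6 CPM (0.178, 0.0643 to 0.396). When the 73 neuron-like nuclei were also taken out of the reference, 3 members remained at least 2-fold lower (7.49% of all genes), DIP-beta, beat-Ia and side-III, and 6 were higher (4.84% of all genes), beat-IIa with those above.

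Binding partners were compared in 10 groups, 6 of DIP with dpr genes and 4 of side with beat genes. In 66 of 318 nuclei (20.8%, 16.4 to 25.6) at least 1 group had UMIs of both sides. Those nuclei had a median of 10904 UMIs, the others 2430, so that the share moves with depth. Thinned to 1000 UMIs, 10 of 270 nuclei had both sides of a group (3.70%, 1.79 to 6.71). Of these 10 nuclei 9 were nSyb- and para-led, 9 of 28 in that cluster (32.1%, 15.9 to 52.4), and 1 was in cluster 1. At that depth 0 of 27 elav- and fne-led and 0 of 29 muscle-like nuclei had both sides, with exact upper bounds of 12.8% and 11.9%.

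In the DIP-alpha group, dpr10 was highest in muscle-like nuclei, as above, where DIP-alpha and dpr6 had 4 UMIs each. In the nSyb- and para-led nuclei DIP-alpha and dpr10 had 5 UMIs each and dpr6 had 4, and 29 of the 37 UMIs of DIP-alpha were outside the neuron-like nuclei. Both sides were found in 6 nuclei, 2 of them muscle-like. For DIP-beta, 5 of 7 nSyb- and para-led nuclei with a UMI of it also had dpr8, dpr9 or dpr21, and so did 14 of 37 without it, but the nuclei with DIP-beta were deeper (median 3274 against 1137 UMIs). DIP-epsilon or DIP-zeta went with dpr13, dpr14, dpr18, dpr19 or dpr20 in 5 of 7 nSyb- and para-led nuclei, and 18 of the 37 others had 1 of these dpr genes. DIP-gamma and its 4 dpr partners were found together in 4 of 318 nuclei, and DIP-delta with dpr12 in 3. In the group of DIP-eta, DIP-theta and DIP-iota with dpr1 to dpr5, both sides were found in 19 nuclei, 6 of them in cluster 1.

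**Figure D4:**
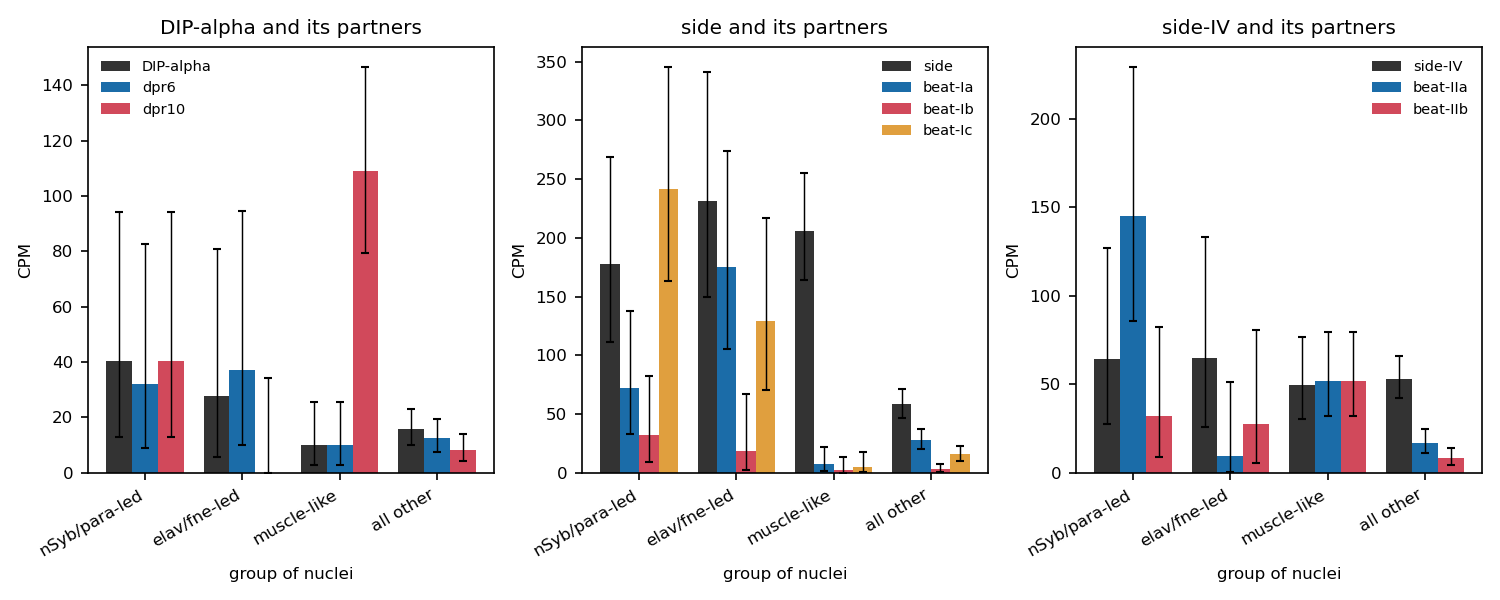
CPM of the members of 3 partner groups (vertical axes, from 0) in the nSyb- and para-led, elav- and fne-led and muscle-like nuclei and in all other nuclei, with exact 95% Poisson intervals. Each colour is to be followed across groups: dpr10 is at 109 CPM in muscle-like nuclei, side is at 177, 231 and 206 CPM in the first 3 groups, and beat-Ia and beat-Ic are at 7.44 and 4.96 CPM in muscle-like nuclei.

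In the side group, neuron-like and muscle-like nuclei differed in the beat genes. At 202 and 206 CPM of side, the neuron-like and muscle-like nuclei had 336 CPM (265 to 419) and 14.9 CPM (5.46 to 32.4) of beat-Ia, beat-Ib and beat-Ic. In neuron-like nuclei 12 of 18 with side also had 1 of these beat genes, as did 17 of 55 without side, at median depths of 3788 and 1739 UMIs. In muscle-like nuclei 3 of 20 with side had 1 of them. side-IV and the pair beat-IIa and beat-IIb met most often in muscle-like nuclei, where 10 nuclei had side-IV, 10 had beat-IIa or beat-IIb, and 5 had both, at a median of 12685 UMIs for those with side-IV against 3478 for those without. side-II with beat-VI was found in 8 nuclei in all, and side-VI with beat-Va, beat-Vb or beat-Vc in 8. The 3 Beat-V genes were lower in muscle-like nuclei, with 1 UMI there and 57 elsewhere (0.0796, 0.00198 to 0.462), whereas side-VI had 9 UMIs there (0.817, 0.353 to 1.68).

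Single nuclei held several members at once. More members were found in deeper nuclei, up to 39 of 53 in a cluster 1 nucleus of 55846 UMIs and 32 in the muscle-like nucleus of 123309 UMIs, but a nSyb- and para-led nucleus of 8292 UMIs had 36. At 1000 UMIs per nucleus the mean was 4.54 members in 28 nSyb- and para-led nuclei, 1.70 in 27 elav- and fne-led nuclei, 1.24 in 29 muscle-like nuclei and 0.771 in 48 epidermis-like nuclei. In the nSyb- and para-led nuclei 16 of 28 had UMIs of at least 2 dpr genes, 5 of at least 2 DIP genes, 11 of at least 2 beat genes and 6 of at least 2 side genes. In the elav- and fne-led nuclei the counts were 2, 0, 4 and 3 of 27. Without thinning, 30 of 44 and 10 of 29 nuclei had at least 2 dpr genes. Scrublet, which scores nuclei for the mixed profile of doublets, called 8 nuclei, of which 0 were nSyb- and para-led. The calls were 3 apolpp-rich, 2 cluster 1, 1 elav- and fne-led, 1 muscle-like and 1 epidermis-like nuclei. Of the 16 nuclei with the highest scores, 7 were in cluster 1 and 2 were neuron-like.

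**Figure D5:**
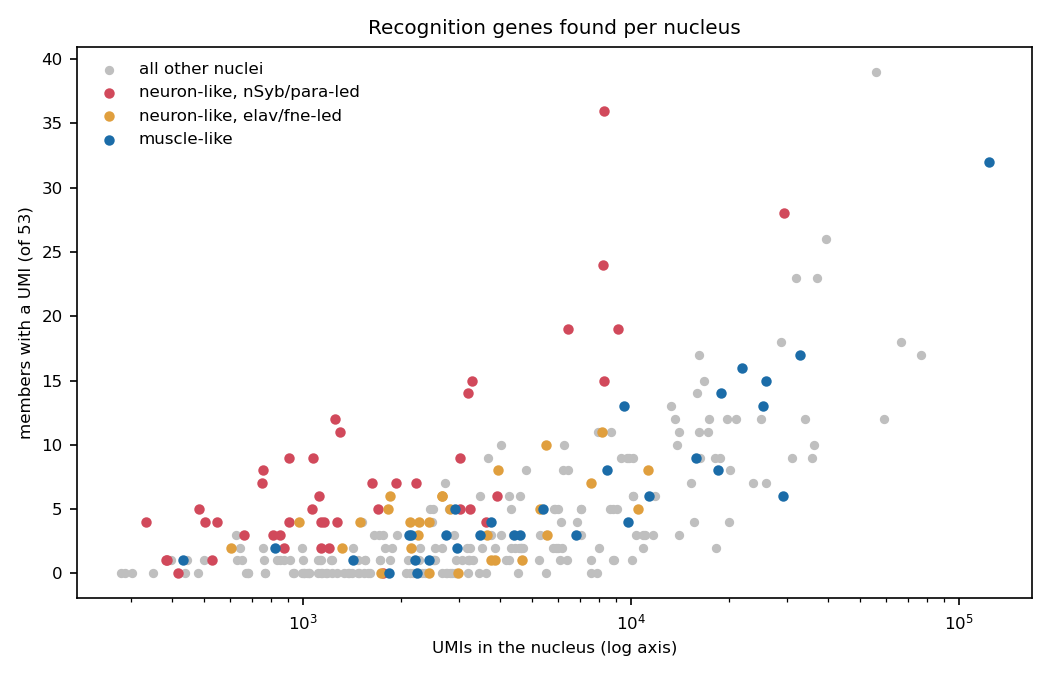
Number of the 53 members with a UMI in each of 318 nuclei (vertical axis) against the UMIs of the nucleus (log axis), coloured for the neuron-like and muscle-like groups. The nSyb- and para-led nuclei overlap the others, with a member in 42 of 44 and 36 members in the nucleus of 8292 UMIs, and the muscle-like nucleus at the right edge has 32 at 123309 UMIs.

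Other surface proteins of axons and synapses were compared in the same way, first in neuron-like against other nuclei. There 7.94% of all genes were at least 2-fold higher and 8.63% at least 2-fold lower. Of 19 synapse organisers with at least 20 UMIs 8 were at least 2-fold higher, among them the neuroligin Nlg3 (9.14-fold, 6.07 to 13.8) and the neurexin Nrx-1 (6.05-fold, 4.16 to 8.75), and 0 were lower. The lowest were Nlg1 (0.594, 0.0687 to 2.35) and sns (0.834, 0.524 to 1.27), which acts in the fusion of myoblasts. Among 16 genes of axon fasciculation and adhesion 8 were higher, led by the Dscam paralog Dscam2 (5.79-fold, 3.76 to 8.84) and klg (4.69-fold, 3.81 to 5.75), and 1 was lower, Ama (0.482, 0.362 to 0.632), with Fas3 at 0.730 (0.625 to 0.848). Of 19 guidance receptors and ligands 4 were higher, led by the Slit receptor robo3 (6.43-fold, 4.42 to 9.31) and the semaphorin Sema2b (5.43-fold, 4.27 to 6.89). The netrin NetA (0.587, 0.263 to 1.15) and Sema1b (0.777, 0.564 to 1.05) were lowest. The median log2 ratios of these lists were 0.64, 0.85 and 0.18, beside 1.66 for the members and -0.07 for all genes. Between the nSyb- and para-led and the elav- and fne-led nuclei, 4 of 19 synapse organisers, 3 of 16 adhesion genes and 1 of 19 guidance genes were at least 2-fold higher in the former, beside 13.2% of all genes. At least 2-fold lower were 2, 2 and 3 genes of these lists, beside 15.5% of all genes.

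Positions and overlaps of the members were read from the Release 6 annotation, a build other than that of the counts, and serve as description only. dpr4 and dpr5 lie next to each other, and DIP-eta and DIP-theta, dpr15 and dpr17, and beat-Va and beat-Vc have 1 protein-coding gene between them. Of dpr17 and dpr15, dpr17 had 24 of 57 UMIs in muscle-like nuclei and dpr15 had 2 of 16. The spans of 18 of the 53 members overlap another gene with UMIs, among them dpr10, dpr6, DIP-alpha, DIP-beta, DIP-kappa, beat-Ic, beat-IIIc, side-IV and side-VI. Whether counting used the strand was not given in the sources used here, so UMIs of these members and of the genes they overlap cannot be told apart with certainty.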

How the data were processed

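Nuclei of embryos collected over 0 to 24 h were profiled in 1 RNA library. As deposited by the authors, the matrix holds raw UMI counts (whole numbers) for each gene in each nucleus, and the submitters' processing notes name the build dm3. The aligner, counting program and barcode filter were not given in the sources used here.

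All 318 nuclei were kept. Clustering used scanpy 1.11.5 (python 3.11.15, anndata 0.12.19, numpy 2.4.6, scipy 1.17.1, pandas 2.3.3, igraph 0.11.9). Counts were scaled to 10000 in each nucleus and logged. Of genes in at least 3 nuclei, 2000 variable genes without the members gave 20 principal components and 10 neighbours, and Leiden clustering at resolution 1.0 (seed 0) gave 11 clusters. A marker counted when it had at least 5 UMIs in a cluster and was over 2-fold higher there than elsewhere. A cluster took the name of the leading one of 16 marker lists when at least 3 of its markers counted. That list also needed more such markers than the second list, and no other list more genes among the 10 leading genes. A name was withheld at a median under 989.7 UMIs without a marker of that list among the 10 leading genes. In cluster 0 the germ cell and midgut lists tied at 5 markers. Names were withheld from the apolpp-rich clusters, and the neuron-like nuclei divided, after values were seen. Scrublet scored doublets, and the 8 nuclei it called were kept.

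Ratios are of CPM, and calls use CPM + 10, at least 20 UMIs and a 2-fold difference. Intervals are exact at 95%: Poisson for CPM, Clopper-Pearson for shares, conditional binomial for ratios. For a count of 0 a floor of 3 counts is given, which is not an exact bound. Thinning to 1000 UMIs kept 270 nuclei and left out 48 shallower ones. On simulated counts of 7983 genes, for neuron-like against other nuclei, 2-fold changes came back at a median of 1.77 and 4-fold changes at 3.57. The 10 partner groups came from general knowledge of published binding assays. Members with at least 20 UMIs were named, with rarer ones given by count or name, and up to 4 genes of each comparison list (highest and lowest). Of 260 list entries 252 matched exactly, 4 by an older symbol and 4 were not found. The RefSeq table of Release 6 plus ISO1 MT matched 53 of 53 members, and served only for names, neighbours and overlaps. Members, lists and alternatives were chosen with earlier results of these data known. No sequences of the members are printed.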

Additional observations from a re-analysis of the deposited data

How the results depend on the processing

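No paired analysis was possible because there was 1 library. Of 81 recomputed values of the 9 main results, 61 stayed within the counting interval of the value reported or within 1.5 times the count, 20 moved and 0 changed direction. Of 420 values of 44 single-gene and other results, 369 stayed, 46 moved and 5 changed direction. With each nucleus weighed the same, the ratios of neuron-like to other nuclei were 5.56 for dpr, 8.32 for DIP, 5.08 for beat and 4.94 for all members (4.35, 4.71, 3.33 and 3.65 in the report). With nuclei thinned to 1000 UMIs they were 9.77 for DIP, 4.70 for beat and 4.24 for all members. Neuron-like nuclei chosen by marker UMIs (104 nuclei, 67 shared) gave 2.76 for beat and 3.25 for all members. With members allowed among the variable genes (65 nuclei, all shared) dpr was 4.98 and all members 3.99. Without the highest doublet scores beat was 4.09 and all members 4.08. Against other named classes DIP was 6.10, and without cluster 1 in the reference DIP was 6.27 and all members 3.97. Side stayed between 2.31 and 3.25 throughout, and the dpr and DIP ratio between the neuron-like clusters between 4.71 and 6.45. Of members at least 2-fold higher, 14 of 19 were counted at a minimum of 50 UMIs (7.42% of all genes) and 14 of 37 on CPM + 50. Thinned to 1000 UMIs, partners shared 3.70% of nuclei, not 20.8%, and the muscle ratio of dpr10 was 5.54. The direction changed for beat-Ia between the neuron-like clusters (1.45 thinned), beat-IIa in muscle-like nuclei (0.983 weighed the same, 0.923 thinned), dpr17 there (0.789 weighed the same) and side-V in neuron-like nuclei (0.977 thinned). The neuron-like ratio of dpr10 (0.756 in the report) also rose above 1 when thinned, as given with the dpr genes, and is not among these 5. The 50-UMI minimum tests fewer members and thinning leaves fewer UMIs by construction, and for the other changes the cause was not tested. The reference without cluster 1 and the alternatives for muscle-like nuclei and for the neuron-like clusters were chosen after seeing the data. At resolution 0.5 the neuron-like clusters were not separate, so that comparison gave no value. Most members had under 100 UMIs, and 1 library leaves the variation between embryos unmeasured.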

Other observations

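Among neuron-like nuclei with transmitter genes, at least 1 member was found in 35 of 35 with ChAT or VAChT (cholinergic), 18 of 19 with VGlut, the vesicular glutamate transporter, and 21 of 22 with Gad1 or VGAT (GABAergic). Over all neuron-like nuclei, 68 of 73 had a member, at a median of 1922 UMIs. The transmitter groups overlap, since a nucleus may have UMIs of more than 1 such gene, and their median depths were 3616, 2820 and 1811 UMIs. The members together were at 3598 CPM (3318 to 3894) in the cholinergic nuclei, 4055 CPM (3606 to 4544) in those with VGlut and 4241 CPM (3787 to 4733) in the GABAergic nuclei, and the first and last intervals overlap. Of 6 regulators of motor neurons, 3 were at least 2-fold higher in neuron-like than in other nuclei (7.94% of all genes), among them Lim3 (4.52-fold, 2.85 to 7.04) and tup (2.55-fold, 1.68 to 3.76), while exex was at 1.20 and wit, a BMP receptor, at 1.72. In muscle-like nuclei kirre, which acts in myoblast fusion, was 2.92-fold higher (2.53 to 3.37) than in all other nuclei, and NetA, a netrin, 2.73-fold higher (1.91 to 3.89).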
